A study of Mus musculus with 9 samples.

Results

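The genes described here are 10 mouse genes for contractile and actin-binding proteins that are commonly counted among the targets of serum response factor (SRF): Acta2, Tagln, Tagln2, Cnn2, Cnn3, Myl9, Tpm1, Tpm2, Actn1 and Capg. They were chosen by symbol with their values in these libraries already known, so their levels and fold changes are given as a description, with no test. Each symbol matched 1 of the 55704 genes in the deposited table, and all 10 were among the 20207 genes whose mean over the libraries reached 0.1 FPKM (fragments divided by the length of the gene and the size of the library). The data are 9 bulk RNA-seq libraries of neural stem cells (NSCs) from the subventricular zone of C57BL/6 mice aged 8 to 9 weeks, in 3 groups of 3. The bFGF/EGF-treated NSCs, the control, were collected at day 0, after 16 to 18 h as an adherent culture on laminin with 20 ng/mL bFGF and 20 ng/mL EGF. For bFGF/BMP4-treated NSCs, 20 ng/mL BMP4 took the place of EGF and bFGF was kept, and they were collected at day 6. For BMP4-treated NSCs, 20 ng/mL BMP4 took the place of both factors, also until day 6. All cells shared the B27-supplemented medium and at least 3 earlier passages with bFGF and EGF, and 1 isolation pooled 2 female and 2 male mice. Both comparisons with bFGF/EGF-treated NSCs use the same 3 control libraries and include the 6 days of culture. The comparison of BMP4 with bFGF/BMP4 treatment is matched in time and differs by bFGF.

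SRF is a transcription factor that binds CArG boxes in the promoters of many cytoskeletal and muscle genes. Its MRTF cofactors are held in the cytoplasm by monomeric actin and move to the nucleus when actin is assembled into filaments, while the TCF cofactors of the ETS family (ELK1, ELK3 and ELK4) are phosphorylated by ERK downstream of growth factors such as FGF and EGF. In the brain, high levels of Acta2 and Tagln mark the smooth muscle cells of vessels, whereas Tagln2, Cnn3, Tpm1 and Actn1 are used widely by motile and dividing cells.

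The sequences in which an SRF site was searched are shown first, since the genes are grouped as SRF targets and the CArG box is the site that SRF binds. The RefSeq table of promoter windows (GRCm38.p6, 250 bases before to 50 after a start) held 1 window for 9 of the 10 genes, all but Tagln. The 10-letter CArG box, which reads the same class of letters on both strands, was present without a mismatch in 2 of the 9 windows, those of Cnn2 and Myl9, and with at most 1 mismatch in 4, with Acta2 and Tpm1 added. The start of a window lay 24 to 458 bases from the outermost start of the gene in GENCODE vM39 for 7 of the genes, 1395 bases for Tpm2 and 11675 bases for Capg, and 6 of the 9 windows, all but those of Acta2, Cnn2 and Cnn3, do not reach that start. Of all 32851 windows in the table, 1.63% held an exact box and 21.1% a box with at most 1 mismatch. The Cnn2 window (chr10:79988350-79988649, plus strand) has the exact box in capitals, starting 56 bases upstream of the start. The Myl9 window (chr2:156775214-156775513, plus strand) has its exact box in capitals, 161 bases upstream. The Acta2 window (chr19:34255324-34255623, minus strand) was added after the result of the search was known, as the gene with the largest fitted log2(FPKM + 0.1) difference between the BMP4 groups (by fragment numbers the ratio of Capg was larger), and its capitals mark the 2 boxes with 1 mismatch each, 84 and 34 bases upstream.
Cnn2: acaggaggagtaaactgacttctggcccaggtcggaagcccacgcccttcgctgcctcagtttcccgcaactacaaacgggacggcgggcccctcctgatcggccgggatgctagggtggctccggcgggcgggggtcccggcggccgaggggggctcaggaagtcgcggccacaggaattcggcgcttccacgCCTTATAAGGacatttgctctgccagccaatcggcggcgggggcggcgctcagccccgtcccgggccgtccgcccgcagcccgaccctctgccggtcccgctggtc
Myl9: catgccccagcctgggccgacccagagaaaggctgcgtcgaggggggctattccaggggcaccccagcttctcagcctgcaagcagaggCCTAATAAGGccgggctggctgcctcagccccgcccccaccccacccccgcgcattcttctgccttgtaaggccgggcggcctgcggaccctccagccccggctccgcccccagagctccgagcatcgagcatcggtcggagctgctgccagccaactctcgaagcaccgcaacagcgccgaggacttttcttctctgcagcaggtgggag
Acta2: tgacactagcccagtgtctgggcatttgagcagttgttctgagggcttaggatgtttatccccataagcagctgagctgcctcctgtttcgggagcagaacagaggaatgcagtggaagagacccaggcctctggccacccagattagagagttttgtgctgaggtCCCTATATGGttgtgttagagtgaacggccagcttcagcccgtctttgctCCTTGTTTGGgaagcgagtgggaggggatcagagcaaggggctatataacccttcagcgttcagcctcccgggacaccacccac
The Myl9 window also holds a box with 1 mismatch 99 bases upstream, and the Tpm1 window holds such boxes at 221 and 80 bases. The windows of Tagln2, Cnn3, Tpm2, Actn1 and Capg held neither kind within these 300 bases. A match describes letters only and does not show that SRF binds there.

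**Figure D1:**
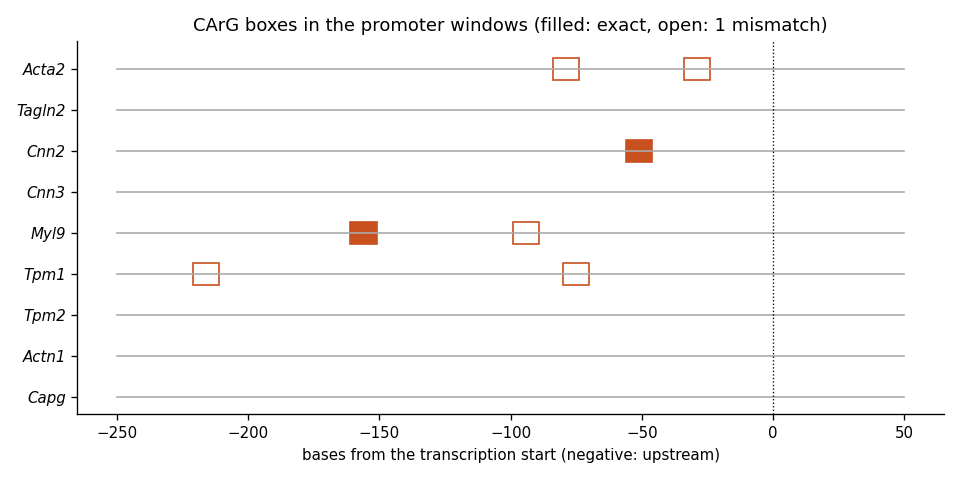
CArG boxes in the promoter windows of the 9 genes that have one, with the distance from the transcription start in bases on the x axis (negative is upstream) and 1 line per gene. Filled boxes are exact matches (Cnn2 and Myl9) and open boxes have 1 mismatch (Acta2, Myl9 and Tpm1), and the other 5 lines are empty.

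Acta2 encodes smooth muscle alpha-actin, the actin isoform of contractile cells (chromosome 19, 34217737 to 34232990, minus strand; this and the following gene positions are from GENCODE vM39 on GRCm39). Its level was 8.70, 16.7 and 14.4 FPKM in the bFGF/EGF libraries, 0.709, 1.66 and 0.898 FPKM in the bFGF/BMP4 libraries, and 16.9, 24.5 and 12.8 FPKM in the BMP4 libraries. All 3 bFGF/BMP4 libraries lay below every other library, and the bFGF/EGF and BMP4 groups overlapped. The mean of bFGF/BMP4-treated NSCs (1.09 ± 0.505 FPKM, SD, n = 3) was 12.2-fold lower than that of bFGF/EGF-treated NSCs (13.3 ± 4.11 FPKM). The mean of BMP4-treated NSCs (18.1 ± 5.93 FPKM) was 16.6-fold higher than that of bFGF/BMP4-treated NSCs, a log2 fold change of 3.96 ± 0.34 (SE) on the log2(FPKM + 0.1) scale of the fit across all genes. In bulk RNA, fewer cells with a transcript and less of it per cell cannot be told apart, and this holds for all values below. The actin genes encode near-identical proteins. How fragments with several matching genes were counted is not given in the sources used here, so the split of fragments among actins is uncertain. Exons of 7 of the 10 genes overlap an annotated gene on the other strand, and whether the counting used strand is not given either. For Acta2 that gene is Stambpl1, which was 7.69, 3.54 and 1.06 FPKM on average in the control, bFGF/BMP4 and BMP4 groups, and its part in the Acta2 values was not tested.

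**Figure D2:**
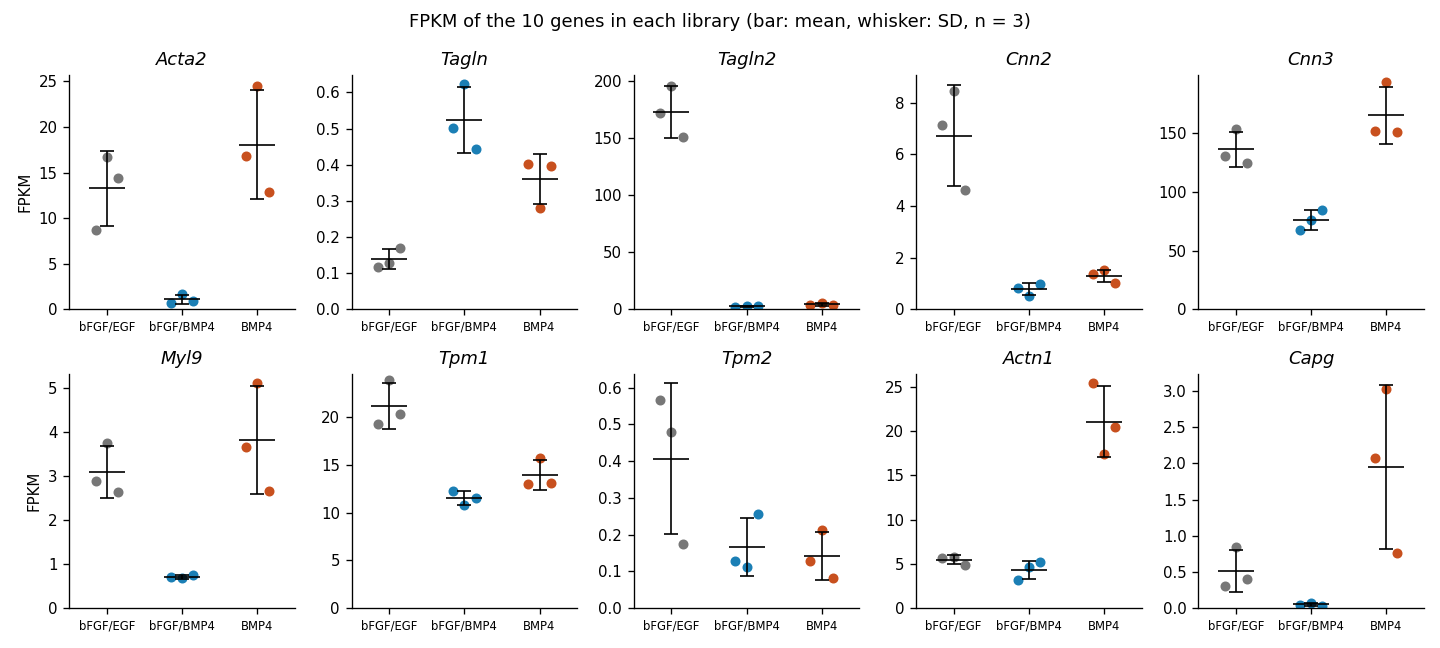
FPKM of the 10 genes on the y axis (linear, starting at 0, scaled for each gene) by treatment on the x axis. Points are libraries, bars are means and whiskers are SDs over 3 libraries. Acta2, Cnn3, Myl9 and Capg are lowest in all 3 bFGF/BMP4 libraries, Tagln2 and Cnn2 are low in all 6 libraries with BMP4, and Actn1 is highest in the 3 BMP4 libraries.

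The transgelins are calponin-related proteins that bind actin filaments, with Tagln (SM22-alpha) typical of smooth muscle and Tagln2 found in many cell types. Tagln2 (chromosome 1, 172327426 to 172334947, plus strand) stood at 172, 196 and 151 FPKM in the bFGF/EGF libraries. It stood at 1.82, 2.50 and 3.30 FPKM in the bFGF/BMP4 libraries and at 3.61, 5.81 and 3.67 FPKM in the BMP4 libraries. No groups overlapped, and the gap between the control and both BMP4 groups was far wider than the gap between the BMP4 groups. The mean was 68.0-fold lower in bFGF/BMP4-treated NSCs (2.54 ± 0.738 FPKM) and 39.6-fold lower in BMP4-treated NSCs (4.36 ± 1.26 FPKM) than in bFGF/EGF-treated NSCs (173 ± 22.4 FPKM). Among the 10 genes this was the widest difference in both comparisons with bFGF/EGF. Tagln itself (chromosome 9, 45840909 to 45847404, minus strand) was close to the detection limit, with 4, 4 and 6 fragments in the bFGF/EGF libraries, 16, 19 and 13 in the bFGF/BMP4 libraries and 13, 9 and 13 in the BMP4 libraries. The corresponding means were 0.139 ± 0.0281, 0.523 ± 0.0912 and 0.360 ± 0.0694 FPKM, in 3 groups that did not overlap and in an order unlike that of the other 9 genes. The ratio of the summed fragments of bFGF/BMP4-treated to bFGF/EGF-treated NSCs was 3.75, with a 95% exact conditional binomial interval of 2.04 to 7.37 that covers counting error only. Exons of Tagln overlap those of Pcsk7 on the opposite strand, which had 2076, 3649 and 2199 fragments summed over the libraries of the 3 groups in the same order, against 14, 48 and 35 for Tagln. The lncRNA Gm48529, also on that strand, had 31, 102 and 66. Both were highest in the bFGF/BMP4 libraries like Tagln, and their part in the Tagln values was not tested.

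Cnn2 and Cnn3 encode calponins, which bind actin filaments and restrain the myosin ATPase. Cnn3 (chromosome 3, 121220146 to 121251856, plus strand) was 131, 153 and 124 FPKM in the bFGF/EGF libraries, 67.1, 75.7 and 84.2 FPKM in the bFGF/BMP4 libraries, and 152, 193 and 151 FPKM in the BMP4 libraries. It thus had the order of Acta2 in a smaller range, with the bFGF/BMP4 group below both others and the other groups overlapping. The mean was 1.80-fold lower in bFGF/BMP4-treated than in bFGF/EGF-treated NSCs, and the log2 fold change of BMP4 over bFGF/BMP4 was 1.12 ± 0.15. Cnn2 (chromosome 10, 79824410 to 79831896, plus strand) followed Tagln2 instead, at 7.13, 8.43 and 4.60 FPKM in the bFGF/EGF libraries against 0.835, 0.530 and 0.967 FPKM in the bFGF/BMP4 libraries and 1.35, 1.51 and 1.04 FPKM in the BMP4 libraries. No groups overlapped. The means were 8.64-fold lower in bFGF/BMP4-treated NSCs and 5.18-fold lower in BMP4-treated NSCs than in the control. The pair of calponins therefore differed in their pattern, since with BMP4 alone the Cnn3 libraries overlapped the control and the Cnn2 libraries lay below it.

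Myl9 encodes a regulatory light chain of smooth muscle and nonmuscle myosin II, whose phosphorylation switches contraction on (chromosome 2, 156617084 to 156623579, plus strand). It was 2.89, 3.75 and 2.63 FPKM in the bFGF/EGF libraries, 0.696, 0.673 and 0.761 FPKM in the bFGF/BMP4 libraries, and 3.66, 5.10 and 2.66 FPKM in the BMP4 libraries. As for Acta2, all bFGF/BMP4 libraries were below all others and the other groups overlapped. The mean of bFGF/BMP4-treated NSCs (0.710 ± 0.0453 FPKM) was 4.35-fold lower than in the control, and the log2 fold change of BMP4 over bFGF/BMP4 was 2.22 ± 0.24. The lncRNA 5730471H19Rik shares exon positions with Myl9 on the opposite strand and was 2.49, 0.486 and 0.191 FPKM on average in the control, bFGF/BMP4 and BMP4 groups, and its part in the Myl9 values was not tested.

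The tropomyosins lie along actin filaments and govern the access of myosin and other proteins. Tpm1 (chromosome 9, 66929870 to 66956953, minus strand) had means of 21.2 ± 2.42, 11.5 ± 0.726 and 13.9 ± 1.53 FPKM in the control, bFGF/BMP4 and BMP4 groups. No groups overlapped, but the BMP4 groups were close, with 10.8 to 12.2 FPKM against 13.0 to 15.7 FPKM. Its log2 fold changes from the control were -0.87 and -0.60, each ± 0.125, under the 2-fold limit used for calls. Tpm2, a muscle-type tropomyosin (chromosome 4, 43514697 to 43524949, minus strand), had 28, 22 and 9 fragments in the bFGF/EGF libraries, 6, 5 and 11 in the bFGF/BMP4 libraries and 6, 10 and 4 in the BMP4 libraries. Its groups overlapped in all 3 comparisons, and bFGF/EGF replicate 3 stood with the BMP4 groups. Without that library, the log2 fold change of bFGF/BMP4 from bFGF/EGF went from -0.87 to -1.26 and that of BMP4 from -1.01 to -1.40.

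Actn1 encodes alpha-actinin-1, which crosslinks actin filaments in stress fibres and at adhesions (chromosome 12, 80212233 to 80307547, minus strand). It was 5.66, 5.83 and 4.91 FPKM in the bFGF/EGF libraries, 3.23, 4.62 and 5.16 FPKM in the bFGF/BMP4 libraries, and 25.4, 17.4 and 20.5 FPKM in the BMP4 libraries. Its pattern differed from that of Acta2, since the bFGF/EGF and bFGF/BMP4 groups overlapped and the BMP4 libraries lay above both. The mean of BMP4-treated NSCs (21.1 ± 4.05 FPKM) was 4.86-fold higher than that of bFGF/BMP4-treated NSCs (4.34 ± 0.996 FPKM), and the log2 fold change from bFGF/EGF was 1.91 ± 0.20. Capg encodes a gelsolin-family protein that caps the fast-growing ends of actin filaments without cutting them (chromosome 6, 72514955 to 72539970, plus strand). It had 13, 34 and 18 fragments in the bFGF/EGF libraries, 2, 3 and 1 in the bFGF/BMP4 libraries, and 85, 124 and 32 in the BMP4 libraries. With bFGF/BMP4 it was thus at the 3 fragments per library that were taken as the limit of detection, and a fitted fold change there depends on the pseudocount. By summed fragments, 241 against 6, the ratio of BMP4 to bFGF/BMP4 was 37.9 (95% exact interval for counting error, 17.1 to 104). The ratio of bFGF/EGF to bFGF/BMP4 was 9.90 (4.31 to 28.0). The ratio of BMP4 to bFGF/EGF was 3.83 (2.90 to 5.11), but the groups overlapped, since BMP4 replicate 3 had 0.767 FPKM and bFGF/EGF replicate 2 had 0.850 FPKM.

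Calls were made with limma across all genes where the adjusted p reached 0.05 and the change was 2-fold or more. Since the genes were chosen with these values known, their counts are given beside those of all genes and nothing is read from them. From bFGF/EGF to bFGF/BMP4, 5 of the 10 were called lower (Acta2, Tagln2, Cnn2, Myl9 and Capg), against 14.1% of all genes tested, and 1 higher (Tagln), against 16.5%, so that 6 were called where 30.6% of all genes were. From bFGF/EGF to BMP4, 2 were called lower (Tagln2 and Cnn2), against 15.4%, and 2 higher (Actn1 and Capg), against 21.3%, with 36.6% of all genes called in either direction. The Capg call in that comparison was lost when any of 4 libraries was left out, with a log2 fold change of 1.51 without BMP4 replicate 1, 1.25 without BMP4 replicate 2, 1.39 without bFGF/EGF replicate 1 and 1.55 without bFGF/EGF replicate 3, against 1.65 with all. Tagln, at 0.94 in that comparison, was called higher on the TPM scale (1.13), by limma-voom (1.19) and without BMP4 replicate 2 (1.07) or bFGF/EGF replicate 3 (1.03), and Tpm2, at -1.01, was called lower by limma-voom (-1.49) and without bFGF/EGF replicate 3. From bFGF/BMP4 to BMP4, 5 were called higher (Acta2, Cnn3, Myl9, Actn1 and Capg), against 8.41%, and 0 lower, against 5.14%, with 13.5% of all genes called. That 0 was also the number lower at an unadjusted p of at most 0.05 and by limma-voom. Acta2, Myl9 and Capg were below both other groups in bFGF/BMP4-treated NSCs by both calls, as were 1.91% of all genes. The libraries of the groups did not overlap for 8 of the 10 genes between bFGF/BMP4 and bFGF/EGF (57.7% of all genes), for 5 between BMP4 and bFGF/EGF (60.4%) and for 9 between BMP4 and bFGF/BMP4 (38.7%). The median log2 fold changes of the 10 in these comparisons were -1.41, 0.27 and 0.94, where those of all genes were 0.06, 0.10 and 0.

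**Figure D3:**
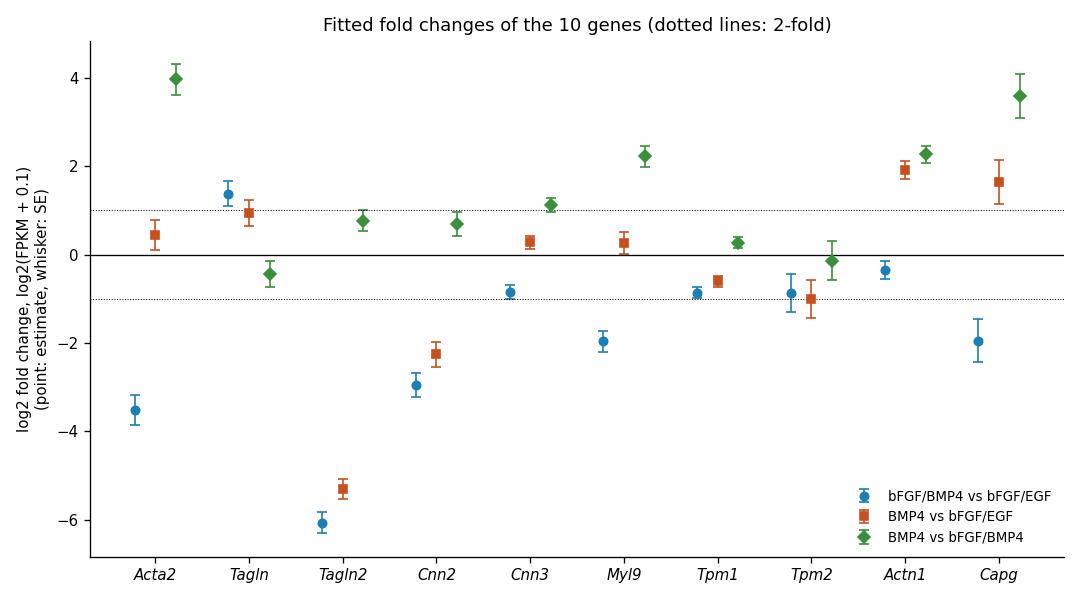
Fitted log2 fold changes of the 10 genes on the log2(FPKM + 0.1) scale (y axis) for the 3 comparisons, with whiskers for the SE and dotted lines at a 2-fold change. Tagln2 lies lowest at -6.06 and -5.30 in the comparisons with bFGF/EGF, and Acta2 highest at 3.96 in the comparison of BMP4 with bFGF/BMP4.

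Of the 3 bFGF/EGF libraries, replicate 2 had the highest value for 8 of the 10 genes, as for 38.5% of all genes tested. Of the 3 BMP4 libraries, replicate 2 had the highest value for 8 too, as for 40.1% of all genes, and replicate 3 the lowest for 6, as for 29.7%. The summed FPKM of all genes was also highest in these replicates, at 294652 in bFGF/EGF replicate 2 and 326302 in BMP4 replicate 2, against 256230 to 282993 in the other 7 libraries. After scaling every library to the same sum (TPM), both were still highest for 7 of the 10, where 27.2% and 22.7% of all genes were highest in these libraries. In the bFGF/BMP4 group, replicate 3 was highest for 6, as for 34.8% of all genes by FPKM. Libraries held 15892854 to 17419822 fragments on genes, and correlations of log2 values were 0.950 to 0.964 within groups and at most 0.915 between them.

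Each of the genes belongs to a small family, and its share of the summed FPKM of that family is given here. These shares describe RNA, not protein, and depend on how fragments were counted. The transgelins summed to 215 ± 23.2 FPKM in bFGF/EGF-treated, 6.72 ± 0.758 FPKM in bFGF/BMP4-treated and 62.5 ± 11.5 FPKM in BMP4-treated NSCs. Tagln2 made up 80.5% of this sum in the control, 37.8% in bFGF/BMP4-treated and 7.02% in BMP4-treated NSCs. Tagln3, the transgelin known from neurons, made up the main part of the rest, with 19.5%, 54.2% and 92.4%. The remaining Tagln was 7.95% at most, in bFGF/BMP4-treated NSCs, where the family sum was low. Tagln3 itself fell from 41.5 ± 1.05 FPKM in the control to 3.66 ± 0.866 FPKM with bFGF/BMP4 (log2 fold change -3.49 ± 0.19, limma adjusted p = 5.21e-07) and was 57.8 ± 11 FPKM with BMP4 (3.95 ± 0.19 from bFGF/BMP4, adjusted p = 1.69e-06). BMP4-treated NSCs thus had a transgelin sum that was largely Tagln3, and bFGF/EGF-treated NSCs one that was largely Tagln2.

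**Figure D4:**
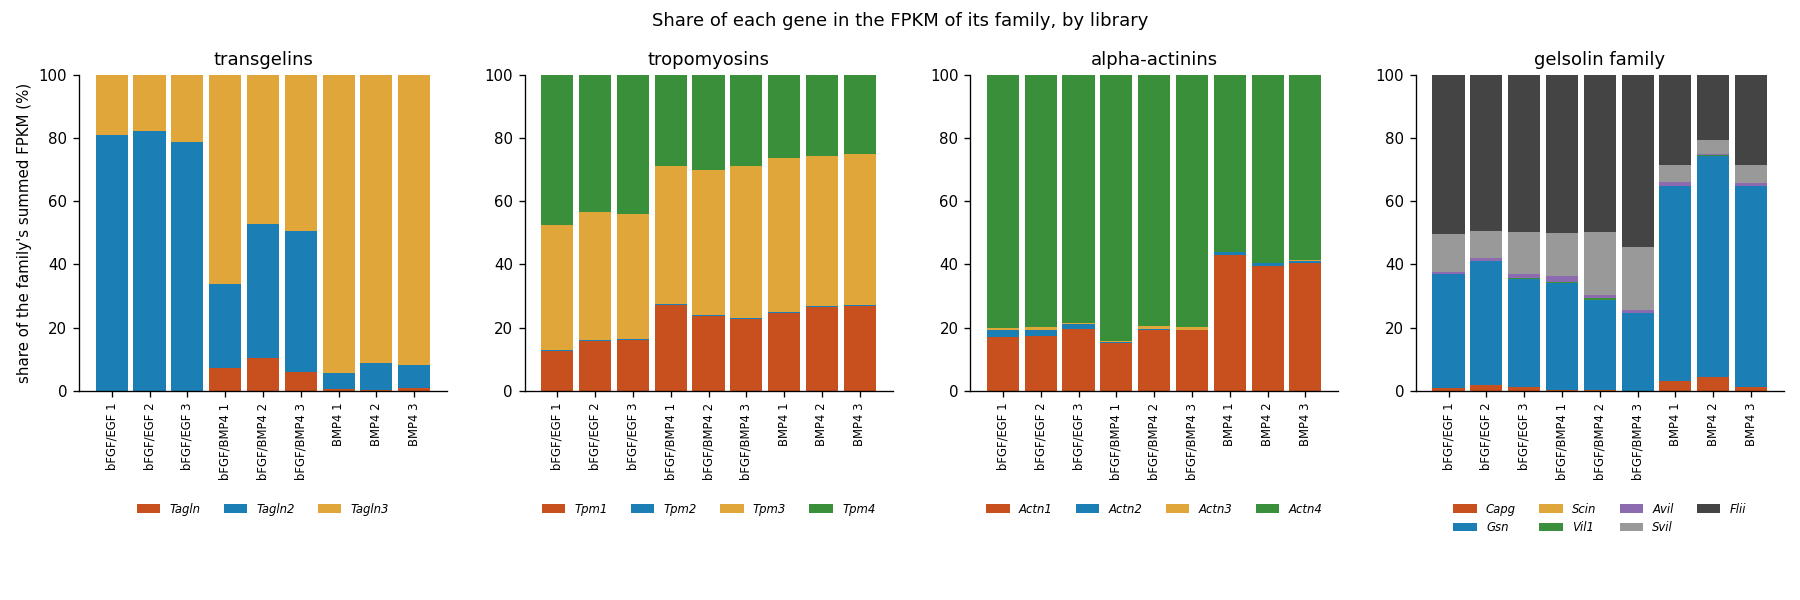
Share of each gene in the summed FPKM of its family (y axis, percent, stacked to 100) in each of the 9 libraries (x axis) for transgelins, tropomyosins, alpha-actinins and the gelsolin family. The Tagln2 share is 78.5% to 82.1% in the bFGF/EGF libraries and 5.23% to 8.39% in the BMP4 libraries, and the Actn1 share is 39.7% to 43.1% in the BMP4 libraries and 15.3% to 19.5% in the other 6.

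Among the alpha-actinins, Actn1 made up 18.1% of the FPKM in bFGF/EGF-treated, 17.9% in bFGF/BMP4-treated and 41.1% in BMP4-treated NSCs, and the widely used Actn4 made up most of the rest. Actn4 was 24.2, 19.4 and 29.5 FPKM in the 3 groups and was not called in any comparison. In the gelsolin family, Capg was a small part at 1.32%, 0.196% and 2.95%. Gsn, which severs and caps actin filaments, rose from 7.72 ± 1.80 FPKM with bFGF/BMP4 to 42.4 ± 4.59 FPKM with BMP4 (log2 fold change 2.46 ± 0.18, limma adjusted p = 1.37e-05) and was 14.0 ± 2.23 FPKM in the control. The share of Gsn was 36.5%, 29.0% and 65.1%. Flii, a gelsolin-related protein, made up 49.7%, 51.5% and 25.9%, and its own change was not called in any comparison. The tropomyosin sum went from 143 FPKM in the control to 47.1 with bFGF/BMP4 and 53.6 FPKM with BMP4, and most of the difference lay outside Tpm1 and Tpm2. Tpm4, a nonmuscle tropomyosin, fell from 64.4 ± 8.97 to 13.8 ± 0.883 FPKM with bFGF/BMP4 and to 13.8 ± 1.55 FPKM with BMP4 (log2 fold change -2.21 ± 0.13 in both, limma adjusted p = 1.02e-06 and 7.53e-07). Tpm3 fell too, with log2 fold changes of -1.40 and -1.15. The share of Tpm1 was 14.9% in the control, 24.5% with bFGF/BMP4 and 26.0% with BMP4.

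Acta2 was a small part of the actin pool in every group. Actb and Actg1, the cytoplasmic actins that all cells use, together made up nearly all of the actin FPKM in each group, and Acta2 made up 0.754%, 0.227% and 2.48% in the control, bFGF/BMP4 and BMP4 groups. Actb fell from 979 ± 172 FPKM in the control to 265 ± 32.7 with bFGF/BMP4 and 333 ± 8.31 FPKM with BMP4 (log2 fold changes -1.88 and -1.54, each ± 0.18, limma adjusted p = 1.76e-05 and 4.52e-05). Actg1 fell from 785 to 243 and 372 FPKM, with log2 fold changes of -1.70 and -1.07, though without bFGF/EGF replicate 2 the change with BMP4 was -0.98 and no longer called. The cytoplasmic actins were therefore low in both BMP4 groups, like Tagln2 and Cnn2, whereas the Acta2 values with BMP4 overlapped the control. Of the muscle actins, Actc1 had 15 to 24 fragments in the bFGF/EGF libraries and 0 in all 6 others, at least 5.64-fold lower with bFGF/BMP4 and at least 5.99-fold lower with BMP4 when set against 3 fragments per library. Acta1 and Actg2 had at most 3 fragments in any library.

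Among the myosin light chains, Myl9 made up 15.2%, 6.63% and 18.7% of the regulatory light chain FPKM. The nonmuscle chain Myl12a made up most of the rest, and its means were 16.4, 8.82 and 15.3 FPKM, an order like that of Myl9. It was not called, with a log2 fold change of -0.88 from bFGF/EGF to bFGF/BMP4 that was called by limma-voom (adjusted p = 0.000214). The means of Myl12b were 0.813, 1.19 and 1.05 FPKM and it was not called. Exons of both Myl12a and Myl12b overlap those of the protein-coding gene Gm49909 on the same strand. How fragments shared by overlapping genes were counted is not given in the sources used here. The levels of both chains and the share of Myl9 are therefore uncertain. Of the essential light chains, Myl6 was not called in any comparison, at 55.7, 47.0 and 73.9 FPKM. Myl6b rose from 4.39 ± 0.813 to 8.93 ± 1.51 and 12.5 ± 2.07 FPKM (log2 fold change 1.01 and 1.49, each ± 0.18, limma adjusted p = 0.00115 and 7.19e-05), and its rise with bFGF/BMP4 dropped under 2-fold without bFGF/BMP4 replicate 1 (0.88), bFGF/EGF replicate 1 (0.91) or bFGF/EGF replicate 3 (0.97), by limma-voom (0.91) and by median-ratio scaling (0.98). Across the list of 20 paralogs, 17 were tested. Of these, 7 fell (41.2%, against 14.1% of all genes) and 1 rose (5.88%, against 16.5%) with bFGF/BMP4. With BMP4, 5 fell (29.4%, against 15.4%) and 2 rose (11.8%, against 21.3%). From bFGF/BMP4 to BMP4, 3 rose (17.6%, against 8.41%), namely Tagln3, Gsn and the muscle actinin Actn2 (0.577, 0.0450 and 0.318 FPKM in the 3 groups). Actn3, Avil and Svil were not called in any comparison, and Scin and Vil1 were under the limit for testing.

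Srf itself was low in both BMP4 groups. It was 18.4, 19.4 and 14.1 FPKM in the bFGF/EGF libraries, 7.16, 6.44 and 5.71 FPKM in the bFGF/BMP4 libraries and 7.98, 6.27 and 7.63 FPKM in the BMP4 libraries. It fell in both comparisons with the control, with log2 fold changes of -1.40 and -1.23, each ± 0.16 (limma adjusted p = 5.77e-05 and 0.000105), and the BMP4 groups overlapped. Its order was therefore that of Tagln2, Cnn2 and Actb. Mrtfb, a cofactor that carries actin signals to SRF, was 7.94 ± 1.09, 4.28 ± 0.469 and 4.17 ± 1.01 FPKM, with log2 fold changes of -0.87 and -0.93 from the control (adjusted p = 0.00414 and 0.00235), under 2-fold. By limma-voom both were called (adjusted p = 0.000585 and 0.000333), and the change with BMP4 was also called on the TPM scale (-1.03) and without BMP4 replicate 1 (-1.07) or bFGF/EGF replicate 1 (-1.01). Mrtfa was 5.25, 4.39 and 3.97 FPKM, and its largest log2 fold change was -0.40 (BMP4 from bFGF/EGF). The TCF cofactors Elk1, Elk3 and Elk4 were not called in any comparison, with Elk3 lowest at -0.89 ± 0.15 from bFGF/EGF to BMP4. Myocd, the cofactor that drives the smooth muscle program, had 0 to 2 fragments in every library and was not tested. Scai, which inhibits MRTF activity, rose with BMP4 by 1.08 ± 0.22 (adjusted p = 0.00217), but by 0.83 and under 2-fold without bFGF/EGF replicate 2. With bFGF/BMP4 its log2 fold change was 0.95, and it was called without bFGF/EGF replicate 3 (1.16).

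A pair of LIM-domain proteins that act with SRF and at focal adhesions had their lowest level in bFGF/BMP4-treated NSCs. Tgfb1i1 (Hic-5) was 2.35 ± 0.617, 0.216 ± 0.0977 and 0.626 ± 0.101 FPKM and fell in both comparisons with bFGF/EGF, with log2 fold changes of -2.98 and -1.74 (limma adjusted p = 3.34e-05 and 0.000849). Its rise of 1.24 ± 0.31 from bFGF/BMP4 to BMP4 (adjusted p = 0.0163) was lost without BMP4 replicate 1 (adjusted p = 0.0604), BMP4 replicate 2 (0.0556) or bFGF/BMP4 replicate 2 (0.0581). Fhl2 had 34 to 59 fragments in the bFGF/EGF libraries, 1 to 3 in the bFGF/BMP4 libraries and 6 to 12 in the BMP4 libraries. The ratio of summed fragments of bFGF/EGF to bFGF/BMP4 was 21.5 (95% exact interval for counting error, 9.62 to 59.5), and that of BMP4 to bFGF/BMP4 was 4.24 (1.72 to 12.6). The limma call of that second difference (adjusted p = 0.0334) was lost when any of 5 libraries was left out (BMP4 replicate 1 or 2, bFGF/BMP4 replicate 1 or 3, or bFGF/EGF replicate 1), with adjusted p from 0.0536 to 0.105, and without the filter on low values (0.0648). For both genes every BMP4 library also lay below every control library, which was not so for Acta2. Of the 9 tested factors and cofactors, 3 fell with bFGF/BMP4 (33.3%, against 14.1% of all genes), 3 fell (33.3%, against 15.4%) and 1 rose (11.1%, against 21.3%) with BMP4, and 2 rose from bFGF/BMP4 to BMP4 (22.2%, against 8.41%).

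**Figure D5:**
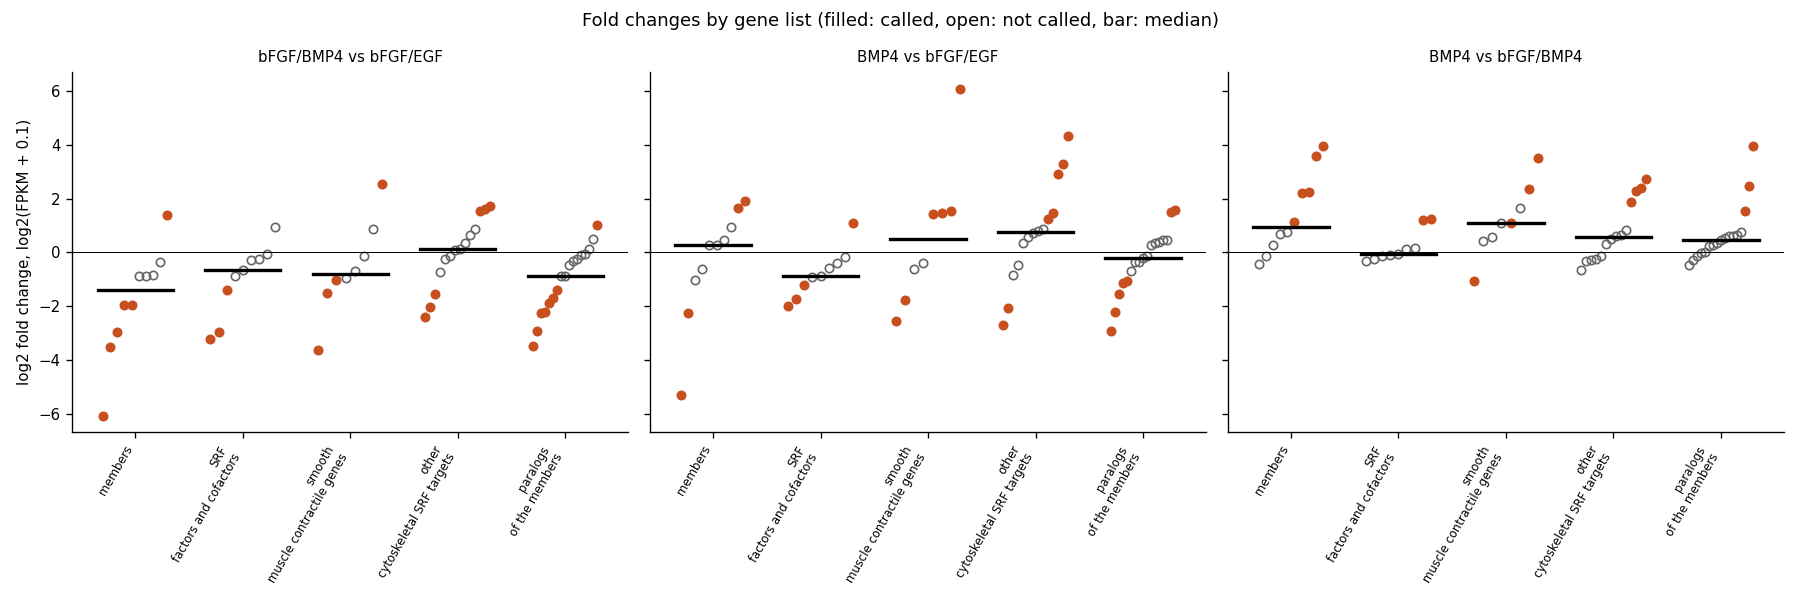
Log2 fold changes on the log2(FPKM + 0.1) scale (y axis) of the 10 genes and of the tested genes of 4 lists (x axis), in 1 panel per comparison. Filled points were called by limma, open points were not, and bars are medians. In the panel of BMP4 against bFGF/BMP4, called points lie above 0 except Smtn at -1.07.

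The other listed genes of the contractile program comprised 77 genes in 5 lists (the factors, the paralogs, the 2 lists that follow and 1 list that is not described here), of which 67 were tested. From bFGF/EGF to bFGF/BMP4, 6 rose (8.96%, against 16.5% of all genes) and 20 fell (29.9%, against 14.1%). From bFGF/EGF to BMP4, 14 rose (20.9%, near the 21.3% of all genes) and 15 fell (22.4%, against 15.4%). From bFGF/BMP4 to BMP4, 13 rose (19.4%, against 8.41%) and 1 fell (1.49%, against 5.14%). The medians of the log2 fold changes were -0.27, -0.15 and 0.29, where those of all genes were 0.06, 0.10 and 0. Of the 67, 7 were below both other groups in bFGF/BMP4-treated NSCs by both calls, as were 1.91% of all genes. These were Fhl2, Tgfb1i1, Cald1, Flna, Rnd3, Tagln3 and Actn2, and with a pseudocount of 1 only 3 were left. Flna, the filamin that crosslinks actin at the cell cortex, was 29.8 ± 1.85, 10.3 ± 2.13 and 38.6 ± 9.67 FPKM in the 3 groups, with log2 fold changes of -1.53 from bFGF/EGF to bFGF/BMP4 and 1.88 from there to BMP4 (each ± 0.20, limma adjusted p = 0.000169 and 0.000142). Cald1, which encodes caldesmon, was 7.06 ± 1.09, 2.44 ± 0.406 and 5.32 ± 0.638 FPKM, and its rise of 1.10 to BMP4 (adjusted p = 0.00146) was 0.96 without bFGF/BMP4 replicate 2.

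Of 13 smooth muscle contractile genes, 8 were tested, and the 5 that were not (Actg2, Cnn1, Myh11, Des and Pdlim3) include the genes that define mature smooth muscle. From bFGF/EGF to bFGF/BMP4, 1 rose (12.5%, against 16.5% of all genes) and 3 fell (37.5%, against 14.1%), and from bFGF/BMP4 to BMP4 3 rose (37.5%, against 8.41%) and 1 fell (12.5%, against 5.14%). From bFGF/EGF to BMP4, 4 rose (50%, against 21.3% of all genes) and 2 fell (25%, against 15.4%). Of the 4, Lmod1 (leiomodin 1, which nucleates actin filaments) was lost when any of 5 libraries was left out (BMP4 replicate 1 or 2, or any bFGF/EGF replicate), with adjusted p from 0.0514 to 0.121, on the TPM scale (0.0519) and without the filter on low values (0.0581). Synpo2, an actin-bundling protein of muscle Z-discs, rose across all comparisons, with 7 to 10 fragments in the bFGF/EGF libraries, 0.548 to 1.09 FPKM in the bFGF/BMP4 libraries and 7.68 to 11.7 FPKM in the BMP4 libraries. Its log2 fold change from bFGF/BMP4 to BMP4 was 3.53 ± 0.28 (limma adjusted p = 2.19e-05). Pdlim7, a PDZ and LIM protein of actin filaments, rose from 2.33 ± 0.140 to 12.4 ± 1.96 FPKM between the BMP4 groups (2.35 ± 0.16, adjusted p = 8.82e-06). Csrp2, a LIM protein of smooth muscle, fell in both comparisons with bFGF/EGF, from 5.75 ± 1.48 to 0.422 ± 0.275 with bFGF/BMP4 and 0.915 ± 0.332 FPKM with BMP4 (log2 fold changes -3.63 and -2.55). Smtn, which encodes smoothelin, went the other way between the BMP4 groups, from 3.32 ± 0.0777 with bFGF/BMP4 to 1.53 ± 0.124 FPKM with BMP4 (-1.07 ± 0.16, adjusted p = 0.000895).

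Of 15 other cytoskeletal targets of SRF, 14 were tested, of which 3 rose and 3 fell with bFGF/BMP4 (21.4% each, against 16.5% and 14.1% of all genes). With BMP4, 5 rose (35.7%, against 21.3%) and 2 fell (14.3%, against 15.4%), and from bFGF/BMP4 to BMP4 4 rose (28.6%, against 8.41%). Ccn2, a secreted matricellular protein also known as CTGF, rose with BMP4 to 81.2, 143 and 60.5 FPKM, from 2.78, 7.09 and 4.17 FPKM in the bFGF/EGF libraries (4.32 ± 0.49, limma adjusted p = 4.53e-05). With bFGF/BMP4 it was 6.50, 23.4 and 15.8 FPKM, overlapping the control, and its call there (1.60 ± 0.49, adjusted p = 0.0216) was lost without bFGF/BMP4 replicate 2, bFGF/BMP4 replicate 3, bFGF/EGF replicate 1 or bFGF/EGF replicate 3, with adjusted p from 0.0644 to 0.0939, and when these groups were fitted alone (0.0585). Ccn1, of the same family, was 7.01, 13.2 and 66.7 FPKM, and Thbs1, which encodes thrombospondin-1, was 2.23, 3.39 and 16.5 FPKM, and both rose with BMP4 in both comparisons. These 3 secreted proteins shared with Actn1 the highest level in BMP4-treated NSCs. Zyx, a focal adhesion protein, and Itga5, a fibronectin receptor subunit, fell in both comparisons with bFGF/EGF instead, Zyx from 27.7 ± 3.69 to 5.20 ± 0.750 and 6.48 ± 0.710 FPKM (log2 fold changes -2.39 and -2.08) and Itga5 from 5.38 to 1.22 and 0.742 FPKM (-2.04 and -2.70). Tes, which encodes testin, rose at a low level, from 0.130 to 0.284 FPKM in the control libraries to means of 0.846 and 0.726 FPKM.

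The genes whose profile over the 9 libraries was nearest to the mean profile of the 10 genes were found by the root mean square difference of centred log2(FPKM + 0.1) values, among 7453 protein-coding genes with a mean of at least 5 FPKM. They were Lmna (0.173), Smpdl3b (0.175), Ppdpf (0.188), Gas1 (0.196) and Idh2 (0.217). Lmna, which encodes lamins A and C, was 10.4 ± 2.29, 3.40 ± 0.0577 and 9.99 ± 1.67 FPKM in the control, bFGF/BMP4 and BMP4 groups, and Smpdl3b was 13.5, 4.45 and 13.5 FPKM. Of the 10 genes themselves, Myl9 (0.356) and Cnn3 (0.406) lay nearest to their mean and Tagln2 (2.19) and Tagln (1.34) farthest, so the mean describes the group unevenly.

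Markers of other cells that express contractile genes were read in the same libraries. All 7 NSC markers were at 1 FPKM or more on average in each group, with sums of 1716 to 1823 FPKM in the control, 690.3 to 792 FPKM with bFGF/BMP4 and 1526 to 1967 FPKM with BMP4. Nestin (Nes), which marks NSCs, was 151, 3.55 and 15.8 FPKM on average, but the 7 markers did not all follow it. Sox2 was 167, 137 and 137 FPKM in the same order and was not called in any comparison. Slc1a3 was 73.6, 130 and 113 FPKM. Msi1 also had its lowest mean in the control, with log2 fold changes from it of 0.35 with bFGF/BMP4 and 1.56 with BMP4. Sox9 was 41.6, 24.4 and 80.3 FPKM. The largest parts of the sums were Vim (677, 167 and 892 FPKM) and Fabp7 (655, 272 and 484 FPKM). Of 9 mural cell markers, 2 reached 1 FPKM on average, Notch3 and Cspg4, which neural progenitors also use. Notch3 was 3.52, 18.7 and 16.7 FPKM and Cspg4 13.2, 3.77 and 3.27 FPKM in the control, bFGF/BMP4 and BMP4 groups. The sums of all 9 were 14.2 to 19.1, 21.0 to 24.5 and 16.4 to 24.2 FPKM and mostly reflect these 2 genes. Myh11, the myosin of mature smooth muscle, was 0.0319, 0.0169 and 0.0296 FPKM. Kcnj8 was listed at 0 in all bFGF/EGF and bFGF/BMP4 libraries and had 1 fragment in each BMP4 library. Summed over the libraries of the groups in the same order, Vtn had 2, 1 and 10 fragments, Abcc9 0, 1 and 4, and Anpep 2, 0 and 1. Pdgfrb was 0.0143, 0.0707 and 0.385 FPKM and Rgs5 0.0430, 0.621 and 0.949 FPKM, both highest with BMP4. Of 5 fibroblast markers and 7 markers of microglia and macrophages, 0 reached 1 FPKM in any group, with sums of at most 0.376 and 0.876 FPKM. Of 5 endothelial markers, Kdr alone did, with 1.18 FPKM in bFGF/BMP4-treated and 3.31 FPKM in BMP4-treated NSCs, while Cldn5 was at 0 in all libraries. The part of other cells in the values of the 10 genes was not tested.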

How the data were processed

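Bulk RNA-seq was made from 9 libraries of cultured mouse NSCs, 3 per treatment. Per the submitters' processing notes, the authors used fastp 0.19.7, HISAT2 2.0.5 with mm39 and featureCounts 1.5.0-p3, and they deposited FPKM values for 55704 genes. Strandedness, the treatment of fragments with several matches and the annotation release are not given in the sources used here. Of the identifiers, 54749 were found in GENCODE vM39 (GRCm39), which gave symbols and positions. Whole fragment numbers were rebuilt from the steps between FPKM values for 30860 of 30860 genes above 0, giving 15892854 to 17419822 fragments per library. The smallest whole numbers that fitted were taken, so they are lower bounds where the true numbers of a gene share a common factor. A level of 3 fragments was taken as the floor. The authors' library constant, on a relative scale, was 0.944 to 1.10 times the fragments of the library.

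Differential expression used limma 3.58.1 in R 4.3.3 with a mean-variance trend on log2(FPKM + 0.1). It covered 20207 genes that averaged 0.1 FPKM or more, with all 9 libraries in the fit and Benjamini-Hochberg adjustment, called where the adjusted p reached 0.05 and the change was 2-fold or more. The method was tested on simulated data. Fold changes on this scale understate the changes of genes with low levels. The labels call the 3 libraries of a group biological replicas, but separate isolations are not stated. The p-values set group differences against the spread between these libraries, pooled over the groups and moderated across genes. They may not hold for other isolations. Ratios of summed fragments have 95% exact conditional binomial intervals that cover counting error only. Tables were made with Python 3.11.15, pandas 2.3.3, numpy 2.4.6, scipy 1.17.1 and matplotlib 3.10.9. CArG boxes were searched on both strands of RefSeq promoter windows.

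The 10 genes and the gene lists were chosen with earlier results of these data known. Named in the text are the 10 genes, the SRF factors and cofactors, the paralogs, in 2 other lists and each comparison the 3 called genes with the largest absolute log2 fold change, and the 5 genes nearest in profile. Flna, Lmod1, the listed genes that could not be tested and the markers were added after their values were seen. The alternatives were another pseudocount, other filters, TPM and median-ratio scaling, limma-voom on whole fragments, blocking on the replicate number, fitting each pair of groups alone, no fold threshold, and leaving out each library in turn. The results of 1 further list are not reported here. Protein sequences were not used here.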

Additional observations from a re-analysis of the deposited data

How the results depend on the processing

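Of 501 fold changes of the 10 genes under an alternative, 483 moved by less than 1 SD between replicates, 18 moved further and 0 of the called ones changed direction. Of 304 counts, 281 stayed within 1.5 times. With a pseudocount of 1 in place of 0.1, the genes called over the whole table went from 6174 to 3544 (bFGF/BMP4 from bFGF/EGF), from 7400 to 4364 (BMP4 from bFGF/EGF) and from 2738 to 1449 (BMP4 from bFGF/BMP4), since it shrinks the changes of low genes. Of the 77 listed genes, 2 then rose with bFGF/BMP4 (6 before), 0 fell from bFGF/BMP4 to BMP4 (1 before) and 3 had bFGF/BMP4 below both other groups (7 before). Of the 10 genes, 0 were then called higher with bFGF/BMP4 (1 before) and 1 with BMP4 (2 before). Named genes that lost a call under this pseudocount were Tagln, Capg, Fhl2, Tgfb1i1, Scai, Smtn, Lmod1, Cald1, Synpo2, Tes, Actc1, Myl6b and Actn2. With a mean of at least 1 FPKM, Tagln, Tpm2 and Capg were left out, 1800 genes were called between the BMP4 groups, and 0 and 1 of the 10 genes were called higher in the comparisons with bFGF/EGF. With each pair of groups fitted alone, 1 was called higher with BMP4, since Capg was lost. With no fold threshold, 9819 genes were called from bFGF/EGF to bFGF/BMP4 and 4271 between the BMP4 groups. Of the 67 listed genes tested, 11 then rose and 31 fell with bFGF/BMP4, and 19 rose and 24 fell with BMP4. From bFGF/BMP4 to BMP4, 22 rose and 3 fell. A level in bFGF/BMP4 below both others was then seen for 11 of them and for 5 of the 10 genes. The shares of all genes by direction and for this pattern are not given at this setting, so nothing is read from these counts. With each library left out, the number of the 10 genes called higher from bFGF/EGF to BMP4 was 1 to 2, with the lower count without BMP4 replicate 1 or bFGF/EGF replicate 1, where Capg was lost.

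Of 9 pairs of libraries with the same replicate number, the correlation of their deviations from the group means was -0.084 to 0.125 and above 0.1 in 1. That pair was bFGF/EGF replicate 2 with BMP4 replicate 2, while bFGF/EGF replicate 3 with BMP4 replicate 2 had -0.15. Correlations of deviations from means of 3 libraries cannot show whether libraries with the same number shared an isolation or a batch. With the replicate block, 6127, 7383 and 2612 genes were called in the 3 comparisons, and no call of the 10 genes changed. The scalings moved the median gene by less than 0.1 on the log2 scale. Capg, Tagln and Tpm2 rest on few fragments, and the depth limits their fold changes.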
